A study of Mus musculus with 6 samples.

Results

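The guanylate-binding proteins (GBPs) were followed through bulk RNA sequencing of mouse enteric glial cell (EGC) cultures, the glia of the gut's own nervous system, at rest and after exposure to lipopolysaccharide (LPS), a component of the outer membrane of Gram-negative bacteria. The members were the rows of the count files whose symbol was one of Gbp2, Gbp3, Gbp4, Gbp5, Gbp6, Gbp7, Gbp8, Gbp9, Gbp10 and Gbp11. These 10 symbols covered 11 of the 46603 identifiers, and 10 of the 11 had enough counts to be tested. The cultures were grown as neurospheres from the embryonic gut of C57BL/6J mice, with 3 control libraries (no treatment) and 3 libraries given LPS at 100 ng/ml for 12 h. No transgene or deletion is named for either group, and whether replicates came from separate cultures is not stated, so the p-values measure only the spread between these libraries.

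GBPs are large GTPases of the dynamin superfamily that interferons induce strongly in many cell types. Inside cells they assemble on vacuoles that hold microbes and on the surface of cytosolic bacteria, and some of them bind LPS and help to activate the inflammatory caspase encoded by Casp4. Some members, among them Gbp2 and Gbp5, carry a lipid anchor added by prenylation. The mouse genes lie in clusters on 2 chromosomes. Interferon-activated transcription factors bind such genes at the interferon-stimulated response element (ISRE), which interferon regulatory factors recognise, and at the gamma-activated site (GAS), while NF-κB binds κB sites.

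In GRCm38, with GENCODE M21 gene models, Gbp5 (chr3:142493978-142522344), Gbp7 (chr3:142530342-142550149), Gbp3 (chr3:142560026-142573209) and Gbp2 (chr3:142620602-142638008) lie in this order on the plus strand, with Gbp2b between Gbp3 and Gbp2. The other 6 lie on the minus strand: Gbp8 (chr5:105014150-105139540), Gbp9 (chr5:105077630-105139539), Gbp4 (chr5:105115767-105139586), Gbp10 (chr5:105215699-105239533), Gbp6 (chr5:105270702-105293698) and Gbp11 (chr5:105323042-105346472). Gbp11 is annotated as a polymorphic pseudogene and the others as protein coding. The second identifier that the files label Gbp6 is named Gm43302 in GENCODE M21. It had 0 counts in all 6 libraries, and 100% of its 50-base stretches also occur in transcripts of other genes, so reads from it could not have been told from those of its neighbours.

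Promoter sequences were taken from RefSeq (GRCm38.p6), which gave an entry for 4 members, Gbp2, Gbp3, Gbp5 and Gbp7, and for Gbp2b. Gbp4, Gbp6, Gbp8, Gbp9, Gbp10 and Gbp11 had none. The 250 bases before the RefSeq start of the 4 members are shown 5′ to 3′ because all 4 hold the ISRE letters and all 4 rose with LPS; capitals mark the ISRE match.
Gbp5, chr3:142496684-142496933, plus strand: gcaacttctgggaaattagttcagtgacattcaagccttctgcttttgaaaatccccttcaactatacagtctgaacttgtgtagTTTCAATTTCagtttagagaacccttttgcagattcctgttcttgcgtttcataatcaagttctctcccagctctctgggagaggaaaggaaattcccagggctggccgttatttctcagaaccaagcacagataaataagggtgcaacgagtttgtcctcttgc
Gbp7, chr3:142530086-142530335, plus strand: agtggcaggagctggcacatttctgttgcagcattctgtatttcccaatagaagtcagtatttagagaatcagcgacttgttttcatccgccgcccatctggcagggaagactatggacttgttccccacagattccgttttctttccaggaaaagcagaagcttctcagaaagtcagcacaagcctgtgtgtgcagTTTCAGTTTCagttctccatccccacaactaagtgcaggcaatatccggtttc
Gbp3 (first of 2 starts), chr3:142559794-142560043, plus strand: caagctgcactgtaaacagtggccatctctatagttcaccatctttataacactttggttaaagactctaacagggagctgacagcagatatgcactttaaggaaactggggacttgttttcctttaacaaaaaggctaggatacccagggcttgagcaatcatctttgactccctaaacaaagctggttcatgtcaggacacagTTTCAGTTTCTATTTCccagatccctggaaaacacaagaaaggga
Gbp2, chr3:142620413-142620662, plus strand: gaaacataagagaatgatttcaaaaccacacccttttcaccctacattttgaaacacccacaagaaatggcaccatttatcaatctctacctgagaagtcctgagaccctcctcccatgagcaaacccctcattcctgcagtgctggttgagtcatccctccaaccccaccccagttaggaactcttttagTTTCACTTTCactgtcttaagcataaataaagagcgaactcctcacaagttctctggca

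Each promoter window ran from 250 bases before the start to 50 bases after it, and both strands were searched. The ISRE letters TTTCNNTTTC were found in 4 of 4 matched members and in 3.44% of all 32851 windows. Gbp5 held TTTCAATTTC beginning 165 bases before the start, Gbp7 TTTCAGTTTC at 53 bases, and Gbp2 TTTCACTTTC at 59 bases. Gbp3 held a pair of overlapping matches, TTTCAGTTTC at 45 bases and TTTCTATTTC at 39 bases before its first start, and no match at its second start. The GAS letters TTCNNNGAA, present in 8.30% of all windows, occurred at 2 places in Gbp5 (245 and 52 bases before the start) and at 2 in Gbp7 (106 and 87 bases). The κB letters GGGNNTTTCC, present in 1.63% of windows, were found only in Gbp5 among the 4, at 77 bases before the start. None of these matches overlapped a match to another of these motifs. Gbp2b, which stayed near 0 counts, also held an ISRE match, TTTCACTTTC at 137 bases, and no GAS or κB match. A match describes the letters and shows no binding. GENCODE M21 starts the Gbp2 gene 61 bases and the Gbp3 gene 18 bases upstream of the RefSeq start, and the Gbp5 gene 2956 bases upstream, so the Gbp2 match and all Gbp5 matches lie inside the GENCODE genes.

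**Figure D1:**
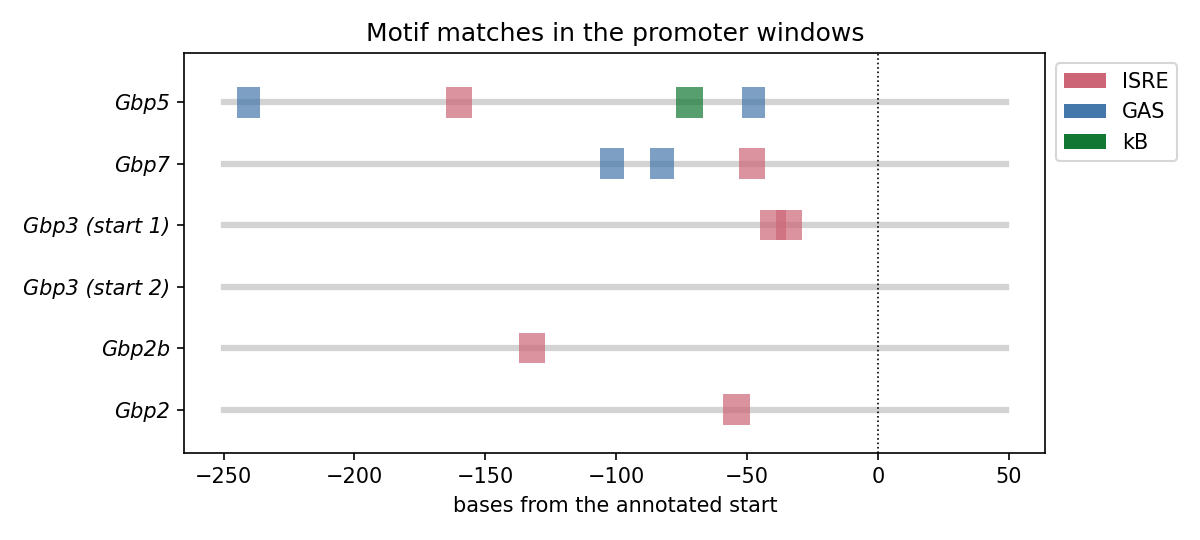
Positions of the ISRE, GAS and κB letters (coloured boxes, both strands) in the RefSeq promoter windows of 4 members, Gbp3 with 2 starts, and of Gbp2b; the x axis gives bases from the annotated start. Every gene shown holds an ISRE match between 165 and 39 bases before its first start, and Gbp5 alone holds all 3 motifs.

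The libraries held 18775316 to 23664312 counts each, so that 3 counts, taken as the floor of detection, corresponded to 0.124 to 0.167 CPM (counts scaled to library size); intervals and floors here cover counting error only. The glial markers Sox10, Erbb3, Foxd3 and Cdh19 were detected in every library, whereas Gfap was at 2.23 to 7.22 CPM. Of 7 tested glial markers, 0 were called higher and 2 lower with LPS. S100b went from 24.7, 20.5 and 21.4 to 4.94, 3.45 and 9.36 CPM (log2 fold change -1.91, edgeR adjusted p = 0.0238). Cdh19 changed by -0.66 on the log2 scale (edgeR adjusted p = 0.0457). A fit with the replicate number as a block called 1 glial marker higher and 2 lower. All 12 macrophage markers were also detected in every library, with none at 0. Their summed level was 4100, 5320 and 12600 CPM in controls 1 to 3 and 4040, 5230 and 20200 CPM in LPS 1 to 3, and 12 of 12 were highest in replicate 3 of each group. Most of this sum was Lyz2, and 1 marker was called higher with LPS, Adgre1, at 159, 229 and 472 CPM in controls and 952, 1260 and 3700 CPM with LPS (log2 fold change 2.78, edgeR adjusted p = 0.0452). With the replicate number as a block, 4 of the 12 were called higher and 3 lower. Over all tested genes 9.09% were called higher and 6.72% lower, and with the block 2343 and 2274 of 15226 genes. Mesenchymal markers summed to 12200 to 14200 CPM, against 370 to 537 CPM for the glial list. Most of the mesenchymal sum was Col1a1 and Col1a2, at 5630 and 3300 of 13000 CPM in control 1. Sums over different genes do not give shares of cells. Of 9 mesenchymal markers 2 were called higher and 4 lower with LPS. Summed neuronal markers were at 218 to 378 CPM and epithelial markers at 1.46 to 3.06 CPM. In such bulk samples, fewer cells of a type and less RNA per cell cannot be told apart. Which cells the GBP reads came from was not tested.

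LPS raised 9 of the 10 tested members (edgeR quasi-likelihood test, adjusted p under 0.05 over 15226 genes). Of all tested genes 15.8% were called, 9.09% higher and 6.72% lower. The exception was Gbp8, and no member was called lower by edgeR, DESeq2 or limma-voom. In all 10 members every LPS library lay above every control library, as in 19.3% of all tested genes. The median log2 fold change of the 10 was 5.79, against -0.02 over all tested genes. Summed over the family, the level was 36.9, 39.5 and 36.9 CPM in the controls and 1460, 1740 and 1270 CPM with LPS, a ratio of means of 39.5. Called genes that rose at least 8-fold made up 2.02% of all tested genes, and the 9 called members were among them.

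**Figure D2:**
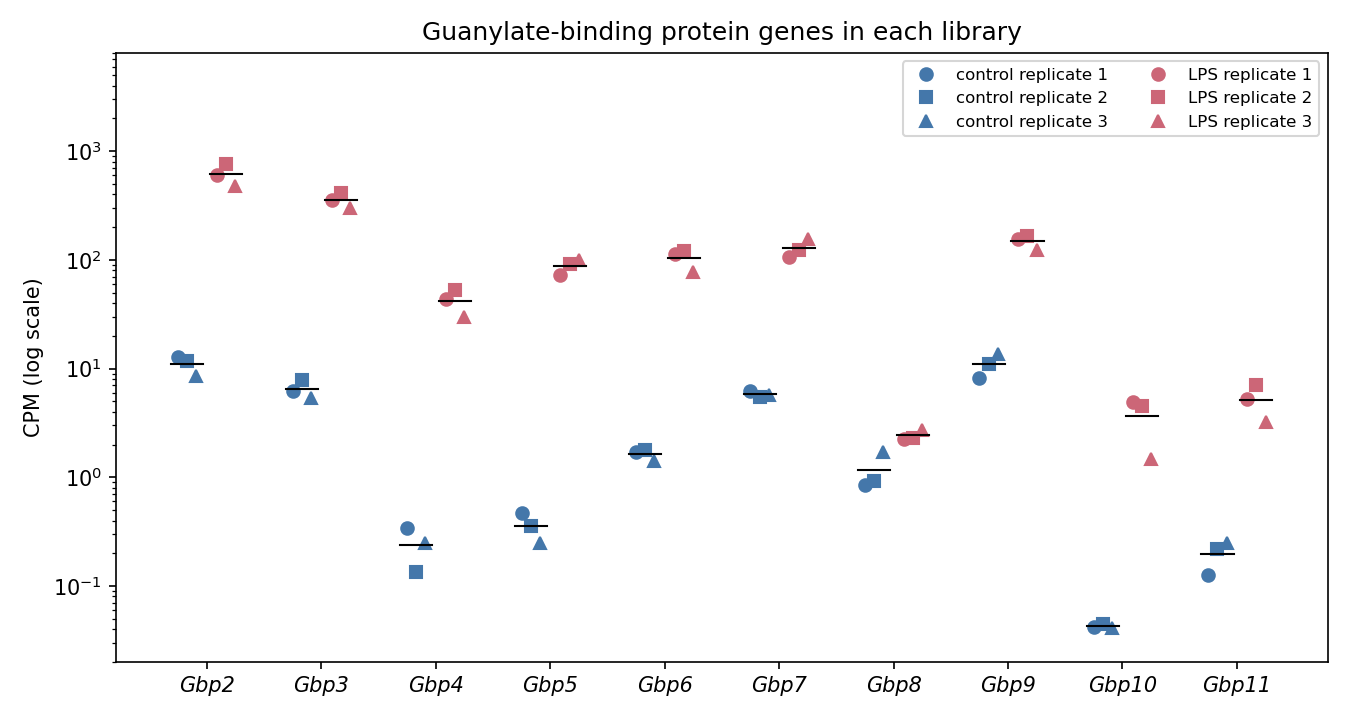
CPM of each member in each library on a log axis; blue, control, and red, LPS; circles, squares and triangles are replicates 1, 2 and 3, and black lines group means. For all 10 genes the LPS points lie above the control points, with the smallest distance for Gbp8.

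Gbp2, which is prenylated and found on the vacuoles of intracellular parasites, was at 12.7, 11.7 and 8.46 CPM in controls 1 to 3 and at 599, 762 and 480 CPM in LPS 1 to 3. With LPS it had the highest CPM of the family in every library, and its groups lay far apart: the log2 fold change was 5.81 ± 0.27 (SE, n = 3 per group; edgeR adjusted p = 0.00026), rank 105 of 15226. Gbp3, its neighbour on the chromosome, stood at 6.22, 7.83 and 5.37 CPM in controls and at 354, 408 and 298 CPM with LPS. Its log2 fold change, 5.77 ± 0.22 (SE, n = 3 per group; edgeR adjusted p = 0.000148), was within the standard error of that of Gbp2. In both genes LPS replicate 2 was highest and LPS replicate 3 lowest.

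Gbp5, known for promoting activation of the NLRP3 inflammasome, had the highest fitted fold change of the family. It was barely above the floor in controls, at 0.466, 0.354 and 0.248 CPM (11, 8 and 6 counts), and reached 72.1, 92.3 and 99.4 CPM with LPS (1460, 1658 and 1900 counts). The log2 fold change was 7.93 ± 0.26 (SE, n = 3 per group; edgeR adjusted p = 0.00011), rank 41 of all tested genes. Gbp7, linked to the delivery of NADPH oxidase and autophagy proteins to bacterial vacuoles, had a higher resting level of 6.22, 5.44 and 5.66 CPM and rose to 106, 124 and 157 CPM. Its log2 fold change was 4.48 ± 0.18 (SE, n = 3 per group; edgeR adjusted p = 0.000177). Unlike Gbp2 and Gbp3, both were highest in LPS replicate 3. Gbp7 shares 11.3% of its exon bases with the overlapping gene model Gm43802, and the counting settings for strand and for reads with several matches are not given in the sources used here.

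Within the chromosome 5 cluster, Gbp4, described as a brake on antiviral interferon induction, had 8, 3 and 6 counts in controls (0.339, 0.133 and 0.248 CPM) and 883, 939 and 564 with LPS (43.6, 52.3 and 29.5 CPM). One control was at the floor, so the fold is imprecise: the log2 fold change was 7.40 ± 0.38 (SE, n = 3 per group; edgeR adjusted p = 0.000353), and the ratio of pooled counts scaled to library size was 172 (95% counting interval 107 to 297). Gbp4 and Gbp5 cannot be ranked: without replicate number 3 in both groups their log2 fold changes were 7.64 and 7.65. Gbp6, like Gbp2 a protein found on parasite vacuoles, went from 1.69, 1.77 and 1.40 CPM to 114, 120 and 78 CPM. Of its 50-base stretches 70.7% also occur in other genes, 65% in Gm43302 and 46% in Gbp10, and 29% of its exon bases overlap Gm43302. The groups were well separated, with a log2 fold change of 6.00 ± 0.23 (SE, n = 3 per group; edgeR adjusted p = 0.000157). Gbp9, together with Gbp2, had the highest resting CPM, at 8.17, 11.1 and 13.5, and rose to 156, 167 and 124 CPM. Of the 9 called members it changed least (log2 fold change 3.77 ± 0.23, SE, n = 3 per group; edgeR adjusted p = 0.000634).

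Gbp10 and Gbp11 were at or near the floor in controls. Gbp10 had 1 count in each control library and 4.89, 4.57 and 1.46 CPM with LPS. Pooled counts were 3 against 209, a scaled ratio of 85.6 with a counting interval of 28.9 to 418 (edgeR adjusted p = 0.00453). Of the 50-base stretches of Gbp10 transcripts, 84.1% also occur in other genes, 73.3% in Gbp6 alone. Its own reads and reads of Gbp6 counted to it therefore cannot be told apart, and its values are uncertain. Of its exon bases, 46.3% overlap the Gm43302 gene model. Gbp11 had 3, 5 and 6 counts in controls (0.127, 0.221 and 0.248 CPM) and 5.28, 7.02 and 3.24 CPM with LPS. Its pooled ratio was 25.9 (counting interval 15.2 to 47.9; edgeR adjusted p = 0.00261), and 19.2% of its 50-base stretches occur in other genes.

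Gbp8 stood apart from the rest of the family. It was at 0.847, 0.929 and 1.69 CPM in controls (20, 21 and 41 counts) and at 2.27, 2.28 and 2.72 CPM with LPS (46, 41 and 52 counts). The groups did not overlap, but control replicate 3 lay close to LPS replicate 1, and the log2 fold change of 1.06 ± 0.32 (SE, n = 3 per group; edgeR adjusted p = 0.0791) missed the threshold. A fit with the replicate number as a block passed it at 1.11 (edgeR adjusted p = 0.033) and so called all 10 members higher, against 15.4% of all tested genes. Leaving out control replicate 3 gave 1.46 (edgeR adjusted p = 0.0233), and DESeq2 gave 1.08 (adjusted p = 0.0302), both past the threshold. A difference between Gbp8 and the other members was not tested. In the gene models Gbp8, Gbp9 and Gbp4 overlap at their upstream ends, where 61, 60 and 61 exon bases are shared, and 18.1% of the 50-base stretches of Gbp8 occur in other genes.

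**Figure D3:**
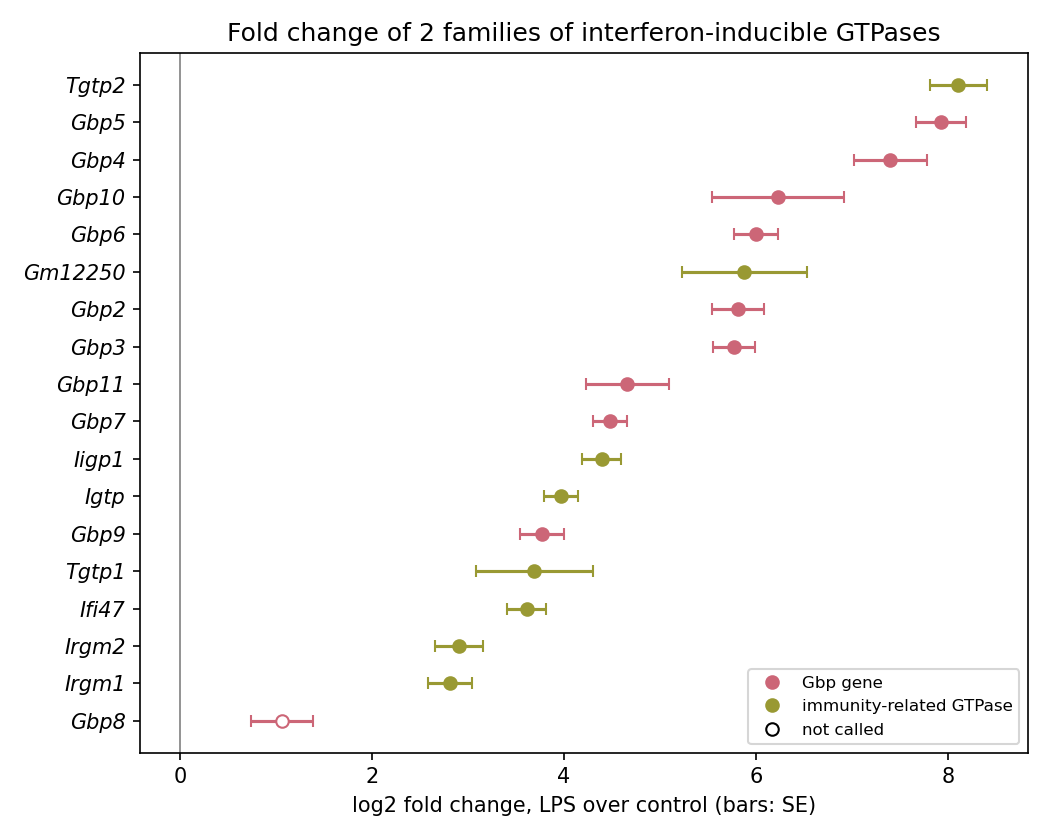
Log2 fold change (LPS over control) with its standard error from the edgeR fit for the 10 members (red) and for 8 immunity-related GTPases (olive), n = 3 libraries per group; open circles were not called. Gbp5 and Gbp4 are the highest GBP genes at 7.93 and 7.40, and Gbp8 is the lowest at 1.06.

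Levels of different genes were compared per kilobase of exon (CPM per kb). At rest Gbp2 was highest, at 4.36 ± 0.885 CPM per kb (SD, n = 3), followed by Gbp9 (2.11 ± 0.52) and Gbp3 (1.98 ± 0.383), whose values overlapped, and by Gbp7 (1.03 ± 0.0721). Gbp8 (0.336 ± 0.136) and Gbp6 (0.272 ± 0.0324) followed with overlapping values, and Gbp11 (0.0738 ± 0.0236), Gbp5 (0.0536 ± 0.0164) and Gbp4 (0.032 ± 0.0138) overlapped in turn above Gbp10 (0.011). With LPS the order was Gbp2 (244 ± 56.1), Gbp3 (108 ± 16.9), Gbp9 (28.8 ± 4.33), Gbp7 (23 ± 4.56), Gbp6 (17.5 ± 3.83), Gbp5 (13.2 ± 2.13), Gbp4 (5.58 ± 1.53), Gbp11 (1.92 ± 0.702), Gbp10 (0.94 ± 0.488) and Gbp8 (0.704 ± 0.0742). The neighbours from Gbp9 to Gbp5 overlapped, as did those from Gbp11 to Gbp8. Among the 15176 tested genes with an exon length, Gbp2 moved from the 47th to the 99th percentile, Gbp3 from 30.6 to 97.4, and Gbp5 from 0.745 to 74. Gbp8 moved from 8.34 to 16.3 and was last in the family with LPS.

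The composition of the family therefore shifted. Gbp2 made up 48.9%, 42.6% and 35.3% of the summed CPM per kb in controls 1 to 3 and 54.7%, 57.4% and 51.8% in LPS 1 to 3. Gbp3 took 19.2% ± 2.5 of the sum at rest and 24.5% ± 0.664 with LPS (SD, n = 3 each). Neither gene's groups overlapped, and both shares were higher with LPS. Gbp9 went from 15.2%, 19.7% and 27.5% to 6.94%, 6.12% and 6.51%. Gbp7 went from 10.1% ± 1.0 to 5.37% ± 1.92, and Gbp8 from 3.34% ± 1.58 to 0.164% ± 0.0457. The 4 members on chromosome 3 together held 72.1% ± 7.77 at rest and 87.5% ± 0.962 with LPS. These shares were not tested; 3 libraries against 3 cannot give an exact two-sided permutation p below 0.10. Without the length correction Gbp2 made up 40.9% of the family counts with LPS and Gbp9 29% of those at rest. With length taken only from exon bases not shared with another gene, the mean LPS share of Gbp6 was 5.37% instead of 3.93%. That of Gbp10 was 0.371% instead of 0.205%.

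**Figure D4:**
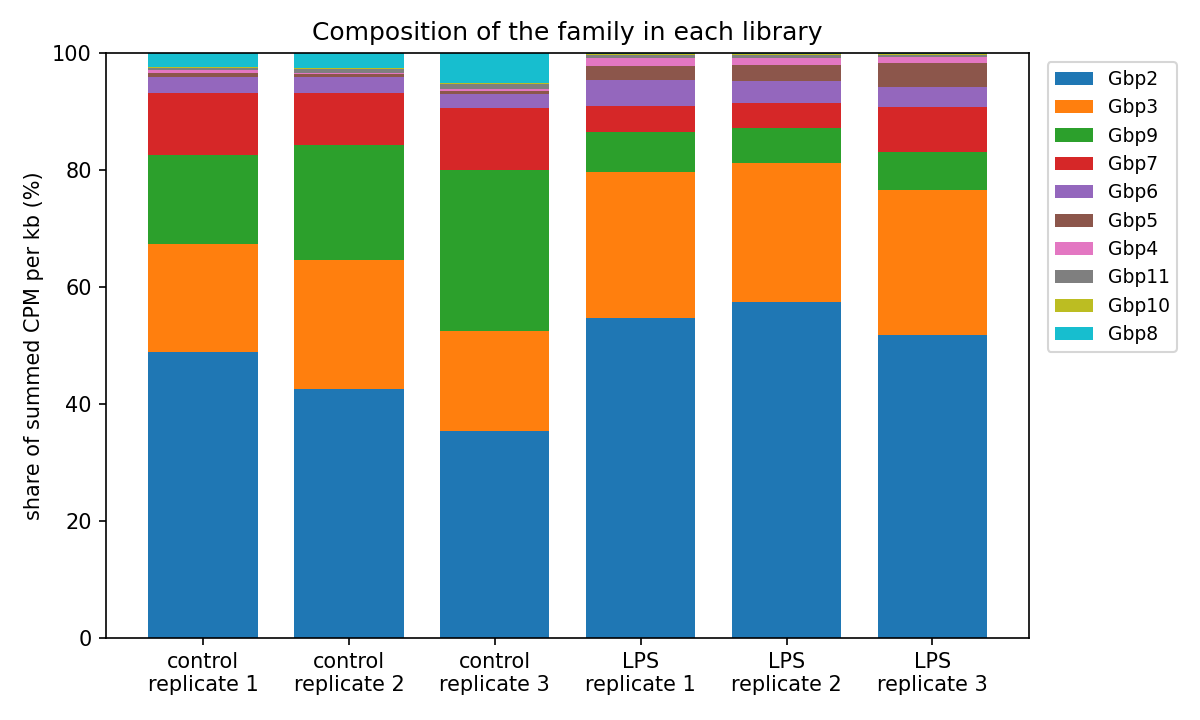
Share of each member in the summed CPM per kb of the 10 members (stacked bars, percent) in each of the 6 libraries. Gbp2 and Gbp3 fill more of the bars with LPS, and Gbp9, Gbp7 and Gbp8 fill less.

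The members were not all displaced the same way in replicate 3, in which the macrophage markers were highest. LPS replicate 3 was 1.36 times the mean of LPS replicates 1 and 2 for Gbp7, 1.21 times for Gbp5 and 1.19 times for Gbp8. The remaining 7 members were lowest in that library, with ratios from 0.781 for Gbp3 to 0.31 for Gbp10. In the controls, replicate 3 was lower than the mean of the other replicates for Gbp2 (0.693), Gbp3 (0.764) and Gbp5 (0.605) and higher for Gbp8 (1.91), Gbp9 (1.41) and Gbp11 (1.42). The part of the macrophage markers in these differences was not tested. Without replicate 3 in both groups, an alternative chosen after seeing the data, all 10 members were called higher, as were 3498 genes in all against 1384 with every library, and the median log2 fold change was 5.80.

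**Figure D5:**
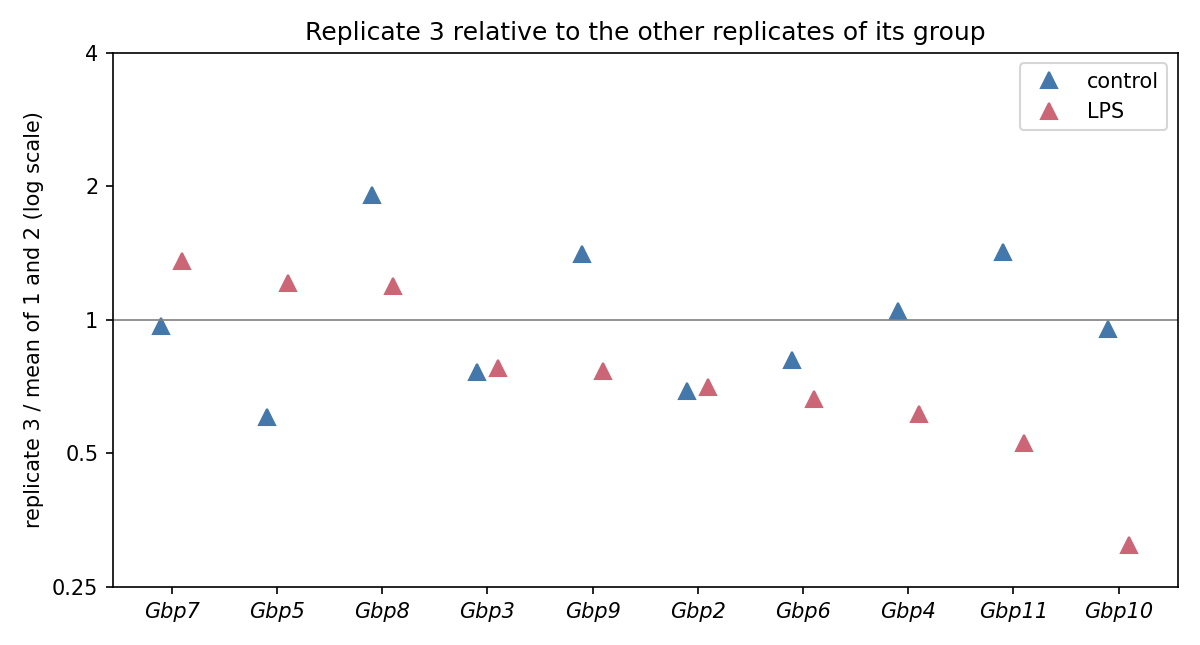
CPM in replicate 3 divided by the mean CPM of replicates 1 and 2 of the same group for each member, on a log axis; blue, control, and red, LPS. With LPS, Gbp7, Gbp5 and Gbp8 lie above 1 and the other 7 members below it.

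The relatives of the GBPs behaved unevenly. Gbp2b, the GBP gene next to Gbp2, had 0 counts in all controls and 2, 5 and 0 counts with LPS, and was not tested. Among 4 tested relatives only Gvin1, a very large interferon-inducible GTPase, was called, from 1.86, 2.39 and 1.73 CPM to 23.1, 23.3 and 16.7 CPM (log2 fold change 3.39 ± 0.21, SE; edgeR adjusted p = 0.000684). The 3 atlastins, dynamin-related GTPases that shape the endoplasmic reticulum, were not called, although without LPS replicate 3 the count of relatives called higher was 2. With the replicate block, DESeq2, upper-quartile scaling or library size alone, 1 relative was called lower, and 2 were without replicate number 3 in both groups. The immunity-related GTPases (IRGs) are a second family that interferon induces and that works with GBPs at parasite vacuoles. In this family 8 of 8 members were called higher, against 9.09% of all tested genes, with a median log2 fold change of 3.83. The count was 7 when either replicate 1 or either replicate 2 was left out, and 6 with at least 10 counts required in every library. Tgtp2 rose by 8.11, Gm12250 by 5.88, Iigp1 by 4.39 and Igtp by 3.97 on the log2 scale. Gm12250 was at 12.8, 15.6 and 42.7 CPM in LPS 1 to 3, and without LPS replicate 3 its value was 5.14. Tgtp1 and Tgtp2 are near-identical copies, so their separate values are uncertain. ISRE letters were present in 6 of the 7 IRG genes with a RefSeq promoter and GAS letters in 5.

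Upstream of the family, transcripts of the interferons themselves were scarce. None of the 6 ligands listed reached the limit for testing: Ifng, Ifna2, Ifnl2 and Ifnl3 had 0 counts in every library, and Ifna4 had 1 count in LPS replicate 1. Ifnb1 had 0 counts in 5 libraries and 0.889 CPM (17 counts) in LPS replicate 3. Counts of 0 allow up to 0.124 to 0.167 CPM, and expression at earlier times was not measured. Of 7 receptor and Janus kinase genes, 4 were called higher (median log2 fold change 0.68), led by Jak2 (2.65 ± 0.28, SE), which went from 52.2, 52.2 and 59.5 to 396, 422 and 214 CPM. The interferon receptor chain Ifnar2 rose by 1.06 on the log2 scale, a call lost without control replicate 2 (adjusted p = 0.0533), and 2 of the 7 were called in that fit. The replicate block called 6 of the 7, and the fit without replicate number 3 in both groups called 7; over all genes these fits called 2343 and 3498 higher, against 1384. All 7 were highest in replicate 3 among the controls and 3 in replicate 3 with LPS.

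Among 12 transcription factors that act on such promoters, 8 were called higher (9 with the replicate block), with a median log2 fold change of 1.93. Over all tested genes 9.09% were called higher, and 15.4% with the block. All 12 were highest in replicate 3 among the controls and 8 in replicate 3 with LPS. Irf7, a factor that amplifies interferon responses, went from 4.02, 4.51 and 5.12 to 467, 492 and 954 CPM (7.13 ± 0.39, SE; edgeR adjusted p = 0.000418). Irf1, which is needed for full GBP induction in macrophages, rose from 19, 19.9 and 26.2 to 85.8, 94.3 and 78.7 CPM (1.99 ± 0.15, SE; edgeR adjusted p = 0.00144). Irf7 was highest in LPS replicate 3, in which most GBP genes were lowest. Batf2, a partner of IRF1, was low at 0.221 to 0.743 CPM in controls and 2.27 to 7.90 CPM with LPS. Its call (3.46 ± 0.69, SE; edgeR adjusted p = 0.0269) did not survive removal of the first control (adjusted p = 0.106), the second control (0.116) or LPS replicate 2 (0.0787). Leaving out 1 library at a time gave log2 fold changes of Batf2 from 2.79 (without LPS replicate 3) to 4.23 (without control replicate 3). Of 5 feedback inhibitors 4 rose (5 were called with the block), led by Usp18 (6.52), which restrains the type I interferon receptor, and Socs1 (3.09), which restrains Janus kinases.

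Of 9 genes on the inflammasome route to which GBPs contribute, 4 were called higher, with a median log2 fold change of 1.48. Over all tested genes 9.09% were called higher. Casp4, whose product binds LPS in the cytosol, rose from 5.67, 5.93 and 10.3 to 60, 63.4 and 62.8 CPM (3.08 ± 0.26, SE; edgeR adjusted p = 0.0019). Il1b, whose product inflammatory caspases help to mature, went from 0, 0 and 0.124 CPM to 399, 499 and 322 CPM. Nlrp3 was at 1.69 to 8.88 CPM in controls and 25.1 to 68.9 CPM with LPS (3.21 ± 0.73, SE; edgeR adjusted p = 0.0377) and was highest in replicate 3 of both groups, as were 9 of the 9 genes in the controls and 7 with LPS. Removal of either replicate 1 or either replicate 2, control or LPS, ended its call (adjusted p at most 0.148). Leaving out 1 library at a time gave log2 fold changes of Nlrp3 from 2.64 to 4.19. In the fits without control replicate 1 or control replicate 2, only 2 of the 9 were called, whereas the replicate block called 6 and DESeq2 called 5. Over all tested genes those fits called 470, 379, 2343 and 2079 higher, in that order, against 1384.

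Genes of the machinery on which GBPs depend, and genes that sense LPS, are set beside the 15.8% of all tested genes that were called. Over all tested genes the block called 2343 higher and 2274 lower, and DESeq2 2079 and 1673. Of 13 autophagy genes that place GBPs on membranes, only Trim21, an ubiquitin ligase, was called (2.55 ± 0.19, SE; edgeR adjusted p = 0.00122), and the median was 0.05. The block called 3 of them higher and 2 lower, and without control replicate 3 or LPS replicate 3 the number higher was 2. Without replicate number 3 in both groups, 5 were called higher and 3 lower. Of 6 prenylation genes 0 were called by edgeR, 2 had an unadjusted p under 0.05, DESeq2 called 2 and limma-voom 0, and the block called 1 higher and 1 lower. Without control replicate 3, 1 prenylation gene was called lower. Of 8 genes of LPS recognition 2 were called, led by Lbp, the LPS-binding protein (3.81 ± 0.43, SE; edgeR adjusted p = 0.00505), at 12.9, 14.9 and 13.9 CPM in controls and 239, 255 and 89.1 CPM with LPS. The block and DESeq2 each called 5 of them, the fit without control replicate 3 called 4, and that without replicate number 3 in both groups called 6. Removal of either replicate 1 or either replicate 2 left 1 called gene in this list.

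The genes whose pattern over the 6 libraries was most like the mean standardized profile of the 10 members were Nfkbia (r = 0.9997), Junb (0.9997), Tnip1 (0.9995), Nfkb1 (0.9995) and Il1b (0.9994), out of 11823 genes compared. Nfkbia and Tnip1 encode inhibitors of NF-κB signalling, Nfkb1 a subunit of NF-κB and Junb a subunit of AP-1. The measure is mostly the step between the 2 groups, and 1348 genes had r above 0.9. Nfkbia was at 18.7, 20.4 and 21.8 CPM in controls and at 225, 260 and 189 CPM with LPS. Its order of LPS libraries was that of Gbp2, whereas its order of control libraries was the reverse of that of Gbp2. Among the members, Gbp4 followed the mean profile most closely (r = 0.998) and Gbp8 least (0.886).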

How the data were processed

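RNA was selected for poly-A and prepared with a stranded kit. The deposited values are raw read counts per gene, which per the labels the authors made with cutadapt 1.15, Bowtie2 2.3.3.1, STAR 2.5.2b, SAMtools 1.5 and featureCounts 1.5.3 on GRCm38. The strand and multiple-mapping settings are not given in the sources used here. Counts were fitted over all genes with edgeR 4.0.16 (quasi-likelihood, TMM factors, filterByExpr with a minimum count of 10, group only) in R 4.3.3. P-values were two-sided and adjusted by Benjamini-Hochberg over 15226 genes, with calls under 0.05. CPM used TMM library sizes, and exon lengths came from GENCODE M21. The series-wide table was not used. Alternatives were RLE, upper-quartile and no scaling, other filters, DESeq2 1.42.0, limma-voom 3.58.1, a replicate block and leaving out libraries. The fits were tested on simulated data. Same-numbered libraries deviated together (r = 0.513, 0.334 and 0.613), so a fit with the number as a block is given beside the counts and calls it changes, while the fit reported has no block; control 1 with LPS 2 gave 0.419 and control 2 with LPS 1 gave 0.323, so only number 3 stood apart. Some items are not reported here. The members and lists were chosen with earlier results of these data known. All 10 members were named, and from each list the called genes with the largest change plus interferon ligands, Irf1, Casp4, Gbp2b and Batf2; the 5 genes most like the members had 5 CPM or more in the group where they were higher.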

Additional observations from a re-analysis of the deposited data

How the results depend on the processing

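The 9 called members stayed called and kept their direction in every alternative in which they were tested. With at least 10 counts required in every library, Gbp4, Gbp5, Gbp10 and Gbp11 were not tested, 5 members were called and the median was 5.12. Leaving out 1 library at a time gave 9 to 10 called members and medians from 5.64 to 5.92. Of 30 single genes followed, 26 kept their side of the threshold in every alternative in which they were tested, which for Il1b, Tgtp2 and Gm12250, too, left out the filter of 10 counts in every library; the others were Gbp8, Ifnar2, Batf2 and Nlrp3.

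Over all genes, the numbers called higher and lower were 1384 and 1023. They were 2079 and 1673 with DESeq2, and 379 to 1964 and 112 to 1426 when 1 library was left out. The numbers called lower were 1589 under upper-quartile scaling and 2055 when only library size was used, with 1050 and 986 higher; the median of all genes was then -0.12 and -0.18. With the replicate block 2343 and 2274 genes were called, and pairing changed no call among the 30 genes other than that of Gbp8. Without replicate number 3 in both groups, added after seeing the data, 3498 and 3159 genes were called, and 55 instead of 32 genes of the pathway lists. Without length correction the share of Gbp2 with LPS was 40.9% instead of 54.6% and that of Gbp9 at rest 29% instead of 20.8%. The causes of these shifts were not tested. Depth limits Gbp4, Gbp5, Gbp10 and Gbp11 at rest.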
